A study of Mus musculus with 4 samples.

Results

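Granzymes are the serine proteases that cytotoxic lymphocytes store in granules, and perforin is the pore-forming protein released with them. The genes were chosen by symbol: Gzma, Gzmb, Gzmc, Gzmd, Gzme, Gzmf, Gzmg, Gzmk, Gzmm and Prf1. All 10 were present in the files, among 23282 rows with 23238 distinct symbols. A read was present for 9 of the 10 in at least 1 library, and the exception was Gzmk. The data were lung RNA profiles of male CDF1 mice in 4 libraries, 1 for each group. The normal control group E(-)T(-) neither ran nor carried tumor, and the normal exercise group E(+)T(-) ran on a treadmill at high aerobic intensity. The cancer control group E(-)T(+) was injected in the tail vein with CT26, a colorectal carcinoma line of mouse, and the cancer exercise group E(+)T(+) had both. Postnatal day 28 and 10 mice stand in the labels of every group. That day may not be the day of sampling, since the methods describe a like age at purchase. Muscle was described as coming from a representative animal per group and lung as examined in a similar way, so a lung library may be of a single mouse, but this is not stated for lung. No difference below therefore has a replicate check, and intervals cover counting error only.

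A cytotoxic T cell or natural killer (NK) cell docks on its target and releases its granules, perforin opens the target membrane, and granzymes enter and cleave proteins inside. Granzyme A cuts after basic residues and granzyme B after aspartate. Mice carry an enlarged set, Gzmc to Gzmg, beside Gzmb, known chiefly from strongly stimulated cytotoxic T cells, lymphokine-activated killer cells and the granular NK cells of the pregnant uterus. Gzma is a typical transcript of resting NK cells, and Gzmk and Gzmm belong to other T and NK subsets.

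The members lie on 3 chromosomes of the mouse genome (GRCm38, GENCODE M21). The cluster at chr14:56117626-56262260 spanned 144.6 kb on the minus strand and held 7 protein-coding genes. In rising coordinates these were Gzme at 56117626 to 56120625, Gzmd at 56129556 to 56132608, Gzmg at 56156582 to 56159579, Gzmn at 56165797 to 56174599, Gzmf at 56205263 to 56211417, Gzmc at 56231441 to 56234656 and Gzmb at 56258838 to 56262260. Gzmn, the granzyme N gene, is not a member and is given only as a neighbour. Gzma lay at chr13:113093825-113100981 and Gzmk near it at chr13:113171608-113225908, both on the minus strand. Prf1 lay at chr10:61297833-61304680 and Gzmm at chr10:79689020-79695261, both on the plus strand. Gzmf and Gzmn each overlap the antisense gene Gm4022, and Gzmk overlaps Esm1. The use of strand in counting is not given in the sources used here, so reads of such pairs cannot be told apart.

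The cluster genes are close copies, which bears on how far their reads can be told apart. The last 75 coding bases, the stop codon included, are printed for each cluster gene from its GENCODE M21 transcript, to show how alike they are over the length of 1 read (75 bases). Reads of this preparation fall near the transcript end, and the 3' UTR of Gzmb, at 581 bases, puts this stretch farther from the end than in the other genes (73 to 119 bases). Capitals mark bases that differ from Gzmd.
Gzmd: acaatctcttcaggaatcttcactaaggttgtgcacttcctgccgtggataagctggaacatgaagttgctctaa
Gzme: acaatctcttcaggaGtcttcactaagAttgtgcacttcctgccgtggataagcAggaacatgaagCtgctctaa
Gzmg: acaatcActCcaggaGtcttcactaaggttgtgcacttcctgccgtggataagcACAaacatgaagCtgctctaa
Gzmf: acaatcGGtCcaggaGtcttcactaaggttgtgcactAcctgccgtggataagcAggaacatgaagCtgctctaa
Gzmn: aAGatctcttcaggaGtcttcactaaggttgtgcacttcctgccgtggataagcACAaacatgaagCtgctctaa
Gzmc: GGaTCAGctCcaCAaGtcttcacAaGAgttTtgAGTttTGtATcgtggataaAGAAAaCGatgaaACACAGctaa
Gzmb: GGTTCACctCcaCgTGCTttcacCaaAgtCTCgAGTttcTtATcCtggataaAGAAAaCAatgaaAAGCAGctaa
Gzme differed from Gzmd at 4 of these bases, Gzmf, Gzmg and Gzmn at 7 each, Gzmc at 34 and Gzmb at 38. Over the coding sequence Gzmd was 93.3% identical to Gzme, 86.4% to Gzmg and 83.4% to Gzmf, against 69.7% to Gzmc and 64.8% to Gzmb. In the last 500 bases of the transcripts, 22 of 426 windows of 75 bases (5.16%) were shared letter for letter by Gzmd and Gzme. Gzmg and Gzmn shared 14 of 426 (3.29%). The other members shared no such window with any gene. The split of reads among Gzmd, Gzme, Gzmf and Gzmg is therefore uncertain to the extent that the aligner placed inexact reads, so values of their sum are given as well.

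The starts of the same genes are shown because Gzmc to Gzmg were high in the same libraries. Promoters of 300 bases from RefSeq (GRCm38.p6) matched all 10 members and Gzmn by symbol. Over this window Gzmc, Gzmd, Gzme, Gzmf and Gzmg were 72.9% to 93.4% identical to each other, whereas Gzmn was 42.4% to 45.5% identical to them, although its coding sequence was 79.4% identical to that of Gzmd. Gzmb was 38.8% to 43.8% identical to those 5 at the start. Capitals mark matches, on either strand, to the Runx letters TGTGGT, the CRE letters TGACGTCA, the AP-1 letters TGANTCA or the STAT letters TTCNNNGAA.
Gzmc (chr14:56234608-56234907, minus strand): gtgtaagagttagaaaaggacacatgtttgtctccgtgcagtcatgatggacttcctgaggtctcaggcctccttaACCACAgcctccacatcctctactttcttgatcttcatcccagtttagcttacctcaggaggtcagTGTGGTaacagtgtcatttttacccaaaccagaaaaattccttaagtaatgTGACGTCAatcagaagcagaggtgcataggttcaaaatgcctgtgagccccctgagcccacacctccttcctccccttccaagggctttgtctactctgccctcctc
Gzmd (chr14:56132544-56132843, minus strand): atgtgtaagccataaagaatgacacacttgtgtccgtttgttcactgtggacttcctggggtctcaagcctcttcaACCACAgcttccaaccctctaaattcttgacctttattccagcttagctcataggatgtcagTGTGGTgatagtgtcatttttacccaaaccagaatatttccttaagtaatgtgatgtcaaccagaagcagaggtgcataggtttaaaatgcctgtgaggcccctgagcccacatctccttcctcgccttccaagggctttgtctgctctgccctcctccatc
Gzmf (chr14:56211358-56211657, minus strand): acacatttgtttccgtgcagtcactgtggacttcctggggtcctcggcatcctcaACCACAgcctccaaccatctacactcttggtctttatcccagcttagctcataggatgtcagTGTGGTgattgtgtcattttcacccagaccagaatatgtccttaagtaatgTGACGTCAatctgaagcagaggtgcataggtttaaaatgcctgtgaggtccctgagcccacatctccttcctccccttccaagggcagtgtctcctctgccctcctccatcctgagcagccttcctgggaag
Gzmb (chr14:56262285-56262584, minus strand): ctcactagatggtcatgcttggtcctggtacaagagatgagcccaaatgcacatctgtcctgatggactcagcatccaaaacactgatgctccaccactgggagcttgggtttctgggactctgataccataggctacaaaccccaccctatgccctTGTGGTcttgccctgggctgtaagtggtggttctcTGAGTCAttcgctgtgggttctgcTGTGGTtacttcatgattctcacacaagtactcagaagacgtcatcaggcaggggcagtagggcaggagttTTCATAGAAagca
Gzma (chr13:113100932-113101231, minus strand): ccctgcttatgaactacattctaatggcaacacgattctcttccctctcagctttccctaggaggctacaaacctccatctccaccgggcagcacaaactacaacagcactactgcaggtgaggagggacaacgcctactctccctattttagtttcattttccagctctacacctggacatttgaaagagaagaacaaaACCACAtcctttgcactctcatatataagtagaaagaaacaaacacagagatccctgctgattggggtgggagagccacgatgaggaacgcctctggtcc
The letter patterns were searched on both strands, none of them contained in another. The Runx letters were found in 9 of these 11 promoters, in Gzma, Gzmb, Gzmc, Gzmd, Gzme, Gzmf, Gzmg, Gzmm and Prf1, against 16.8% of 32851 mouse promoters of the same length. Gzmc to Gzmg each held 2 such matches, and as near copies they are not independent. In Gzmd they lay 174 and 112 bases before the start, and in Gzmf 195 and 133. The CRE letters were found in Gzmc, Gzmf and Gzmg (1.79% of all promoters). The AP-1 letters occurred only in Gzmb among the 11 (7.81% of all), the STAT letters in Gzmb and Gzmm (8.30%), and the TATA letters TATAAA only in Gzmn (13.6%). The T-box letters AGGTGTGA were found in no promoter of the 11 (1.28% of all). These are letter matches and not measured binding.

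Values are given as reads recovered from the deposited log2 values (log2 of normalized count + 1), or as reads per 1000000 reads of the effective library size (RPM), which is the total times the scaling factor that the deposited values imply. Values in series follow the order normal control, normal exercise, cancer control, cancer exercise. Totals ran from 9354546 reads in the cancer control to 13367963 in the cancer exercise library, and 3 reads equal 0.224 to 0.321 reads per 1000000 reads of the total. Some facts of the libraries touch the granzymes. All 9 alveolar epithelium markers had reads in every library, and 8 of them were lower by 2-fold or more in the cancer control than in the normal control (25.7% of all rows). Hemoglobin genes took 14.3%, 14.2%, 1.43% and 31.4% of reads. Some of them, such as Hbb-b2 and Hbb-bt (90953 and 99116 reads in the normal control), had close counts in each library. Whether reads were counted in more than 1 row was not tested, so these shares and the totals may be too high. The library labelled E(+)T(-), normal exercise, held reads of genes that had 0 reads in the normal control and very many in the cancer control. Among them were Crabp1 (141 reads against 10478), Krt20 (46 against 2696), Etv4 (12 against 681) and Osr2 (29 against 1673). Results for the normal exercise library are therefore given beside these genes, and their part in the granzyme values was not tested. Whether these reads, and those of Gzmd to Gzmg in the same library, came from the cancer control library was not tested either.

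Gzma, granzyme A, was the main granzyme transcript of the tumor-free lung. It had 1157 reads in the normal control, 739 in the normal exercise library, 362 in the cancer control and 245 in the cancer exercise library. The levels were 81.9 (95% interval 77.2 to 86.7), 56.5 (52.5 to 60.8), 33.0 (29.7 to 36.6) and 23.8 (21 to 27) RPM, so the 4 libraries stood in this order with no overlap of counting intervals. Gzma was lower with tumor by 1.31 on the log2 scale without exercise (2.48-fold) and by 1.24 with exercise (2.37-fold), both past the 2-fold limit. The differences with exercise, -0.53 without tumor and -0.47 with tumor, stayed inside that limit, and their read ratio intervals (-0.67 to -0.40 and -0.71 to -0.23) left out 0.

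Gzmf was the most abundant cluster granzyme, and it had no read in the normal control. It had 0 reads in the normal control, 37 in the normal exercise library, 1784 in the cancer control and 427 in the cancer exercise library. A count of 0 allows up to 3 reads, so Gzmf was at least 767-fold higher in the cancer control than in the normal control against that floor of 3 reads per library. The floor is not an interval end. The exact 95% interval of the log2 read ratio began at 9.28. In the cancer exercise library the level was 41.6 RPM (37.7 to 45.7), 3.92-fold lower than the 163 (155 to 170) of the cancer control.

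Gzmd had 0, 15, 575 and 138 reads. Gzmg had 0, 11, 475 and 127. Gzme had 0, 9, 278 and 46. Each of these granzymes thus followed the order of Gzmf, highest in the cancer control, next in the cancer exercise library, low in the normal exercise library and without a read in the normal control. Against the floor they were at least 247-fold (Gzmd), 204-fold (Gzmg) and 119-fold (Gzme) higher in the cancer control than in the normal control. With tumor, the exercise library was lower by 3.91-fold for Gzmd, 3.51-fold for Gzmg and 5.66-fold for Gzme, with log2 intervals of -2.24 to -1.69, -2.10 to -1.52 and -2.98 to -2.05.

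Gzmc, granzyme C, differed from that quartet in having reads in all 4 libraries, namely 6, 5, 206 and 104. The tumor-free pair did not differ beyond counting error (log2 ratio -0.15, interval -2.20 to 1.82). Gzmc was 44.3-fold higher with tumor without exercise (log2 interval 4.32 to 6.93) and 26.5-fold higher with exercise (3.46 to 6.38). An alternative for the latter value, which rests on 5 reads in the normal exercise library, is given below. Its level in the cancer exercise library was 53.9% (42.1 to 68.5) of that in the cancer control, a log2 difference of -0.89 that stayed inside the 2-fold limit. The shares left for Gzmd, Gzme, Gzmf and Gzmg were smaller, from 17.7% to 28.5%, and no interval among them reached above 34.8%.

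Gzmb, granzyme B, the classic inducer of target cell apoptosis, had 50, 17, 117 and 35 reads. Its levels of 3.54 (2.63 to 4.66) in the normal control and 3.41 (2.37 to 4.74) RPM in the cancer exercise library were not separated by counting error, with the cancer control above at 10.7 (8.83 to 12.8) and the normal exercise library below at 1.30 (0.757 to 2.08). Gzmb was 3.02-fold higher with tumor without exercise (log2 interval 1.10 to 2.10). It was lower with exercise in both settings, by 2.72-fold without tumor (-2.33 to -0.63) and by 3.13-fold with tumor (-2.24 to -1.09). In this it differed from Gzmd to Gzmg, which were above the 0 reads of the normal control in the normal exercise library.

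Prf1 and Gzmm had few reads and Gzmk none. Prf1, perforin, had 1, 7, 15 and 2 reads. The ratio of the cancer control to the normal control was 19.3, with a log2 interval of 1.57 to 9.67, and the cancer exercise library was lower than the cancer control by 7.03-fold (-5.99 to -0.71). In the normal exercise library Prf1 stood at 39.1% (13.5 to 102) of its cancer control level, the highest such share among the members that were highest in the cancer control. Its difference between the tumor-free libraries, with a log2 interval of -0.04 to 8.41, did not exceed counting error.

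Gzmm, granzyme M, had 15, 11, 3 and 3 reads, lower in both tumor libraries. The log2 interval was -4.39 to -0.13 without exercise and -4.01 to 0.39 with exercise, so the second did not exceed counting error. Gzmk, granzyme K, had 0 reads in all 4 libraries, which allows up to 3 reads in each. Vamp7, a SNARE that many cells use, was also at 0 in all 4, so a row at 0 is not read here as low expression. The neighbour of Gzmk, Gzma, was the best covered granzyme of the normal control.

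**Figure D1:**
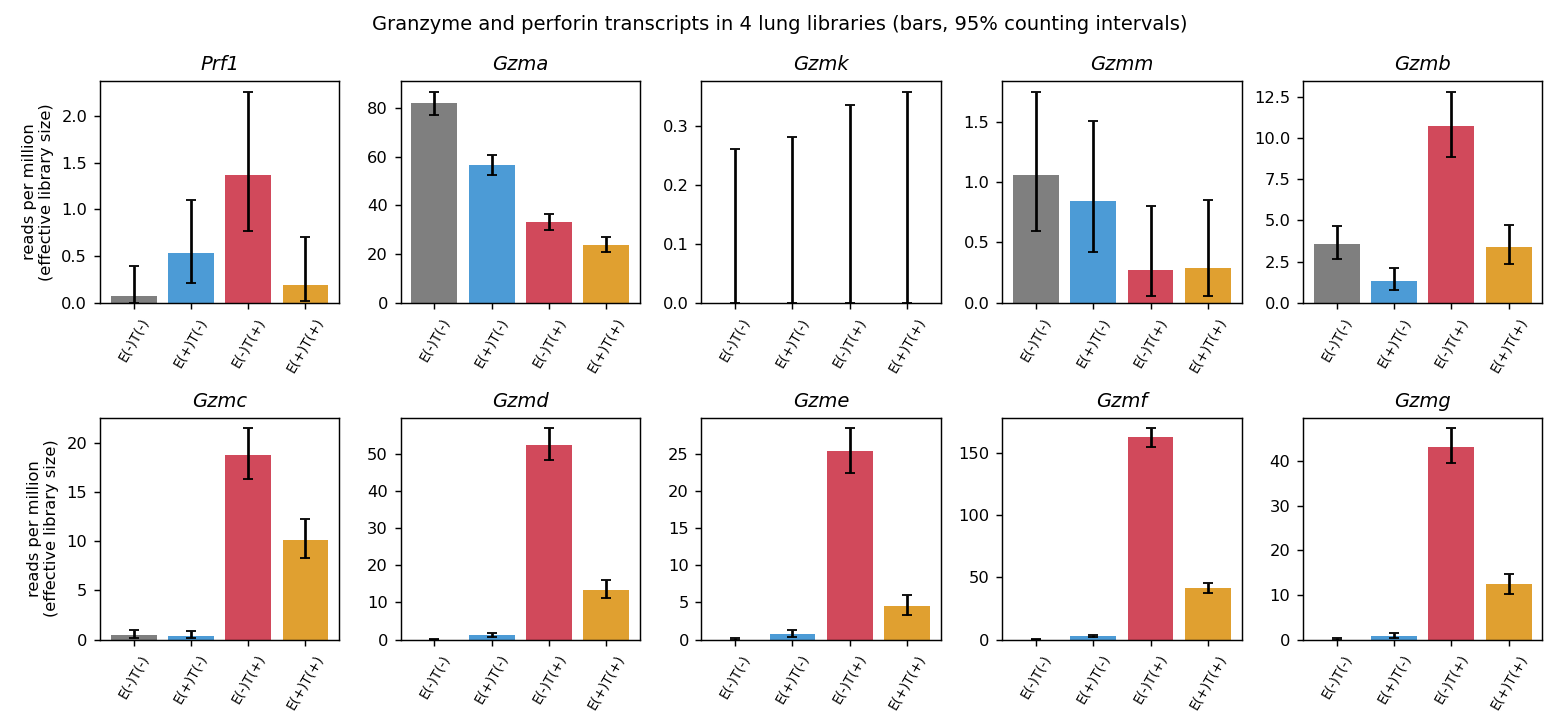
RPM (linear axes from 0, a scale for each gene) in the 4 lung libraries. Bars are single libraries and whiskers are exact 95% Poisson intervals. Gzmb to Gzmg are highest in E(-)T(+), where Gzmf reaches 163, while Gzma is highest in E(-)T(-) at 81.9 and Gzmk has 0 reads throughout.

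The cancer control was compared with the normal control, without exercise. A gene was called when the deposited log2 values differed by 1 or more, among rows whose normalized count averaged 4 or more. Of the 9 members past this filter, 7 were higher in the cancer control than in the normal control (Gzmb, Gzmc, Gzmd, Gzme, Gzmf, Gzmg and Prf1), and 20.6% of all 15164 rows were called so. Both others, Gzma and Gzmm, were lower, as were 25.7% of all rows. The median log2 difference was 5.24 over the 9 members and -0.03 over all rows. Prf1 passed the filter only through the cancer control and so had to differ. Gzmm passed it only through the tumor-free libraries. Gzmc, Gzmd, Gzme and Gzmg passed it only through the tumor libraries, and Gzmd to Gzmg, with 0 reads in the normal control, could not have been lower, so these counts and the median support nothing by themselves. The sum of Gzmd to Gzmg was 0 reads in the normal control and 3112 in the cancer control, with a log2 interval that began at 10.09.

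With exercise as background, the cancer exercise library was compared with the normal exercise library. In that comparison 6 of the 9 were higher (Gzmb to Gzmg), against 14.9% of all rows. Gzmc, Gzmd, Gzme and Gzmg passed the filter only through the tumor libraries, so this count supports nothing by itself either. The 3 called lower were Gzma, Gzmm and Prf1, against 13.0% of all rows, and the intervals of Gzmm and Prf1 included 0. Gzmm passed the filter only through the tumor-free libraries, so the count of lower members supports nothing by itself. The ratios were 14.7-fold for Gzmf (log2 interval 3.39 to 4.40) and for Gzmg (2.99 to 4.92), 11.7-fold for Gzmd (2.78 to 4.43), 6.50-fold for Gzme (1.65 to 3.92) and 2.62-fold for Gzmb (0.52 to 2.32). The log2 ratio of the summed Gzmd to Gzmg was 3.71 (3.35 to 4.08). In an alternative chosen after seeing the data, 1.44% of the cancer control level, the median share over Crabp1, Krt20, Etv4 and Osr2, was taken out of the normal exercise library. The log2 difference of Gzmf was then 6.21 in place of 3.84 and that of Gzmg 5.40 in place of 3.76. For Gzmd it was 4.85 in place of 3.46, for Gzmc 5.75 in place of 4.47 and for Gzme 3.51 in place of 2.58. The members' median log2 difference was 2.58. Prf1 was thus on the higher side without exercise and on the lower side with it (2 reads against 7), a contrast that was not tested. With scaling by library totals alone, which moved the median of all rows by -0.41, the log2 difference of Gzmb was 0.93 and missed the limit.

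Exercise with tumor, the cancer exercise library against the cancer control, left no member higher, against 24.3% of all rows called higher. It left 6 of 9 lower, Gzmb, Gzmd, Gzme, Gzmf, Gzmg and Prf1, against 17.7% of all rows. Prf1 passed the filter only through the cancer control, and Gzmd to Gzmg are near copies, so this count supports nothing by itself. The summed Gzmd to Gzmg was 3.95-fold lower (log2 interval -2.10 to -1.87). The members' median was -1.80 and that of all rows 0.01. Gzma and Gzmc were lower by less than 2-fold. Both passed the limit (-1.07 and -1.49) when scaled by library totals alone, which moved the median of all rows to -0.59. Gzmm had 3 reads on each side, with a log2 interval of -2.81 to 2.99.

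Exercise without tumor, the normal exercise library against the normal control, gave 5 members higher (Gzmd, Gzme, Gzmf, Gzmg and Prf1), against 5.28% of all rows. Gzmb was the 1 member lower, against 4.70% of all rows. The reads were few, 37 for Gzmf, 15 for Gzmd, 11 for Gzmg, 9 for Gzme and 7 for Prf1. The first 4 had 0 reads in the normal control and could not have been lower, and the interval of Prf1 included 0, so the count supports nothing by itself. Against the floor the folds were at least 13.3 for Gzmf, 5.41 for Gzmd, 3.96 for Gzmg and 3.24 for Gzme, while the exact log2 intervals began at 3.37, 1.96, 1.44 and 1.09. The sum of the 4 was 72 reads, at least 25.9-fold higher. None of these takes account of the reads of Crabp1, Krt20, Etv4 and Osr2 in the same library. With the same 1.44% taken out, as if that share of the cancer control had entered this library, the log2 difference of Gzmf was 2.75 in place of 5.13, that of Gzmd 2.49 in place of 3.88, that of Gzmg 1.82 in place of 3.46 and that of Gzme 2.27 in place of 3.20. Gzmc went from -0.11 to -1.39 and was then called lower, which made 2 members lower. The median over the 9 was 2.08, or 1.70 with the genes at 0 reads set at the floor. The comparisons share libraries in pairs, so their values for one gene are not independent.

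**Figure D2:**
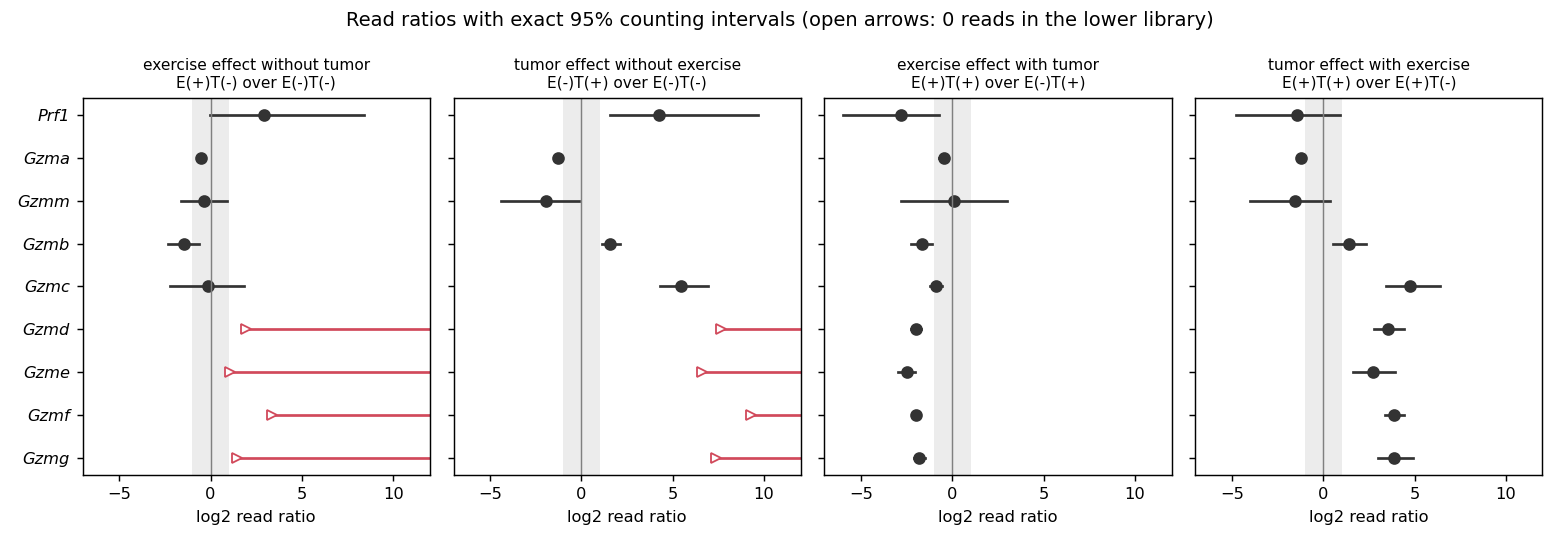
Log2 read ratio of each member with a read (rows) in the 4 comparisons, with exact 95% Clopper-Pearson intervals. Open arrows start at the lower bound where the lower library has 0 reads, and the grey band is the range inside 2-fold. For Gzmf the bound is 9.28 for tumor without exercise and the ratio is -1.97 for exercise with tumor.

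The make-up of the granzyme reads differed between the libraries. Because reads come from the transcript end, they were not divided by length, and shares of reads stand for shares of transcripts. Gzma held 94.2% (exact 95% interval 92.8 to 95.5) of 1228 granzyme reads in the normal control and 87.5% (85.0 to 89.6) of 845 in the normal exercise library. It held 9.32% (8.42 to 10.3) of 3885 in the cancer control and 21.3% (18.9 to 23.7) of 1152 in the cancer exercise library. Gzmc to Gzmg with Gzmn held 0.489% (0.180 to 1.06), 9.23% (7.36 to 11.4), 87.6% (86.5 to 88.6) and 75.4% (72.8 to 77.9). Of the granzyme reads counted, those of the normal control were thus almost wholly of Gzma, and those of the tumor libraries mostly of cluster members. Gzmk enters these shares at 0 reads and may be uncounted.

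Within the quartet of near copies, Gzmd to Gzmg, Gzmf took the most reads in each library with reads. It took 51.4% (39.3 to 63.3) of 72 reads in the normal exercise library, 57.3% (55.6 to 59.1) of 3112 in the cancer control and 57.9% (54.2 to 61.5) of 738 in the cancer exercise library. Gzmd took 20.8% (12.2 to 32), 18.5% (17.1 to 19.9) and 18.7% (15.9 to 21.7). Gzme took 12.5% (5.88 to 22.4), 8.93% (7.95 to 9.99) and 6.23% (4.6 to 8.23). Gzmg took 15.3% (7.88 to 25.7), 15.3% (14 to 16.6) and 17.2% (14.6 to 20.1). By share the order was Gzmf, Gzmd, Gzmg, Gzme in all 3 libraries with reads. In the normal exercise library Gzmd, Gzmg and Gzme had only 15, 11 and 9 reads, and their intervals overlapped. The intervals of Gzmd and Gzmg also overlapped in the cancer exercise library. Gzme was lower with exercise in the tumor libraries by more than the quartet was, with a log2 interval of -2.98 to -2.05 beside -1.98 (-2.10 to -1.87) for the sum, of which Gzme is a part. The difference between them was not tested.

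**Figure D3:**
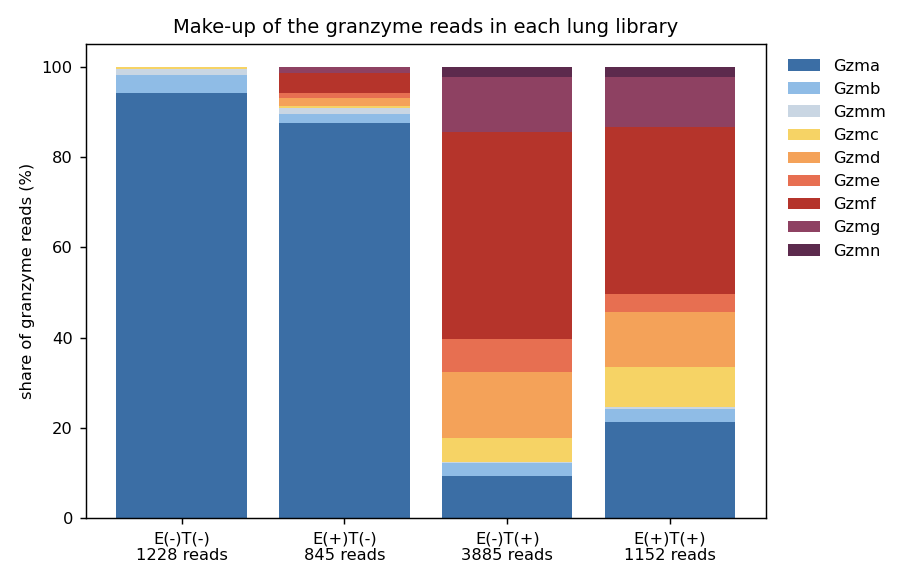
Share of granzyme reads (percent, linear axis) taken by each granzyme gene in the 4 lung libraries, Gzmn included, with the number of granzyme reads under each bar. Gzma fills 94.2% of the bar of E(-)T(-) and 9.32% of that of E(-)T(+), where Gzmf takes 45.9%.

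The level in the normal exercise library relative to the cancer control was low for the quartet and for the genes named above. It was 1.74% (1.22 to 2.41) for Gzmf, 1.94% (0.963 to 3.51) for Gzmg, 2.19% (1.22 to 3.64) for Gzmd and 2.71% (1.23 to 5.23) for Gzme. It was 1.13% (0.949 to 1.33) for Crabp1, 1.43% (1.04 to 1.91) for Krt20, 1.45% (0.970 to 2.09) for Osr2 and 1.48% (0.760 to 2.60) for Etv4. Each of the 4 granzyme shares lay above each of these 4 shares, although their intervals overlap gene by gene. The cluster neighbour Gzmn, with 1 read against 85, lay below them at 0.986% (0.0247 to 5.65). Summed, the quartet stood at 1.94% (1.51 to 2.45; 72 reads against 3112) and the 4 other genes, most of whose reads are of Crabp1, at 1.23% (1.08 to 1.40; 228 against 15528). Without Crabp1 the sum of the other 3 stood at 1.44% (1.15 to 1.79; 87 against 5050), and its interval overlaps that of the quartet. Gzmc stood at 2.03% (0.654 to 4.83), and at 2.26% (0.819 to 5) in the normal control. Gzmb was apart at 12.2% (6.86 to 20.4). The cell division gene Bub1, which like the quartet had 0 reads in the normal control, stood at 9.86% (5.69 to 16.1).

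In the cancer exercise library Gzmf stood at 25.5% (22.9 to 28.4) of its cancer control level, above Crabp1 at 3.89% (3.50 to 4.31), Osr2 at 4.27% (3.30 to 5.46), Etv4 at 13.6% (10.8 to 17.1) and Krt20 at 18.8% (17.1 to 20.8), with no overlap of intervals. Gzme, at 17.7% (12.6 to 24.2), overlapped both Krt20 and Etv4. Cdk1, a cell division kinase, stood at 25.5% (22.7 to 28.6), Birc5 at 23.7% (21.5 to 26.2) and Mki67 at 81.0% (72.9 to 89.9). Over the cell division list of 12 genes, 12 were higher in the cancer control than in the normal control (20.6% of all rows), and 11 were lower in the cancer exercise library than in the cancer control (17.7% of all rows). Bub1 had 0, 18, 153 and 30 reads, and Plk1 34, 61, 1161 and 223. Their summed level was 56.5, 91.1, 1140 and 363 RPM, and its part in the granzyme values was not tested.

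**Figure D4:**
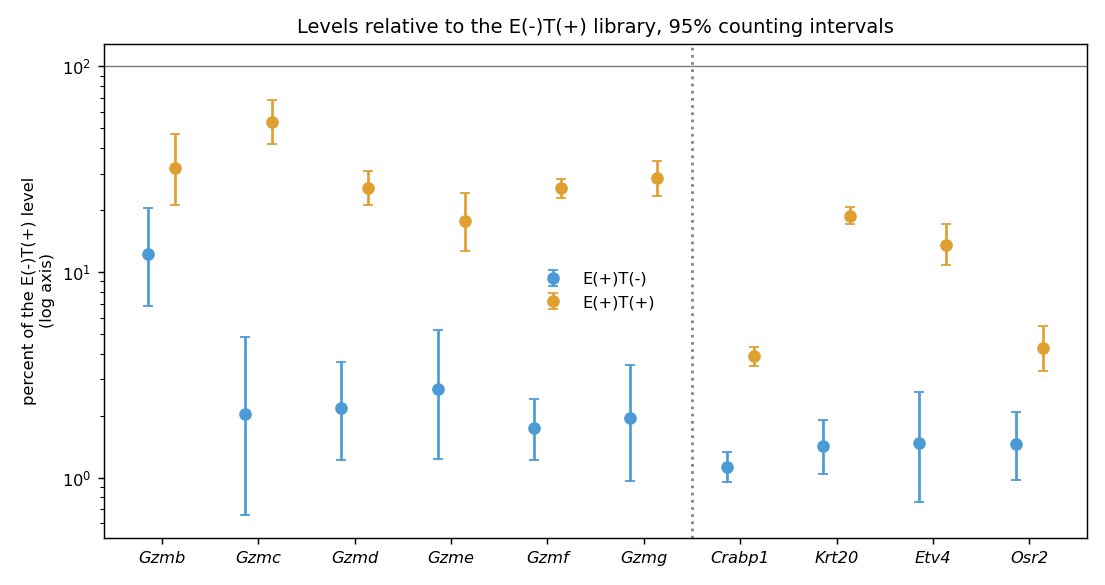
Level in E(+)T(-) and in E(+)T(+) as a percentage of the level in E(-)T(+) (log axis), for 6 granzymes left of the dotted line and 4 genes high in E(-)T(+) right of it. Points are single libraries and whiskers exact 95% counting intervals. In E(+)T(-) Gzmd to Gzmg lie between 1.74% and 2.71%, and in E(+)T(+) between 17.7% and 28.5%.

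The markers of the cells that usually carry granzymes were lower in the library in which the cluster granzymes were highest. In bulk lung RNA, fewer cells of a type and less RNA per cell cannot be told apart. Of 12 T cell markers, 10 were lower and 0 higher in the cancer control than in the normal control (25.7% and 20.6% of all rows), with a summed level of 129, 102, 23.9 and 86.2 RPM. Cd3e had 89, 28, 9 and 32 reads, Cd8a 57, 26, 3 and 34, and Cd3g 62, 59, 0 and 13. Lck had 196, 150, 14 and 83. Of 10 NK cell markers, 8 passed the filter, 6 of them lower and 0 higher in the same comparison (25.7% and 20.6% of all rows), with sums of 45.7, 41.9, 13.3 and 12.3. Some of the T and NK cell markers called lower, Cd3g and Klrb1c among them, passed the filter only through the tumor-free libraries. The counts of lower markers therefore support nothing by themselves. Ncr1, an NK activating receptor, had 165, 132, 27 and 14 reads, Klrb1c 62, 65, 3 and 0, Klrd1 99, 62, 7 and 16, and Itga2 50, 17, 14 and 28. Gzma was higher in both tumor-free libraries than in both tumor libraries, as were the sums of NK, T, B cell and alveolar epithelium markers. Gzmb to Gzmg were highest in the library in which T cell markers were lowest, and the part of these cells in the result was not tested.

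Other cell types that hold granule proteases were measured too. Of 9 mast cell and basophil markers past the filter, 6 were lower in the cancer control than in the normal control (25.7% of all rows). Among the 6, Prss34 rests on 0 reads against 2 and Fcer1a on 1 against 6, and the counting intervals of their levels overlap. Mcpt4 had 9, 7, 0 and 24 reads, and Mcpt8 0, 1, 0 and 60. The sum over the markers was 108, 126, 34.1 and 252. Kit had 786, 456, 41 and 207 reads, Cpa3 20, 39, 6 and 58, and Tpsb2 14, 25, 19 and 34. Of 10 neutrophil markers, 8 were higher in the cancer control than in the normal control (20.6% of all rows), and their sums were 342, 1040, 1000 and 17500. Ltf had 157, 123, 1560 and 554 reads, highest in the cancer control, whereas Mmp8 had 64, 208, 409 and 6983, Ngp 25, 175, 152 and 2607, and Retnlg 129, 690, 647 and 13518. Macrophage markers had sums of 359, 400, 956 and 1370, and B cell markers 69.7, 69.1, 2.55 and 19.3. Cd79a had 142 reads in the normal control and 0 in the cancer control, and Cd79b had 312 and 11. Of 9 macrophage markers, 3 were higher and 1 was lower in the cancer control than in the normal control (20.6% and 25.7% of all rows). C1qa had 387, 380, 3387 and 1319 reads, C1qb 182, 273, 1994 and 868, and Marco 42, 27, 641 and 283. These were highest in the cancer control, as Gzmb to Gzmg were, whereas Siglecf had 91, 116, 6 and 24. The part of these cells in the granzyme values was not tested.

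**Figure D5:**
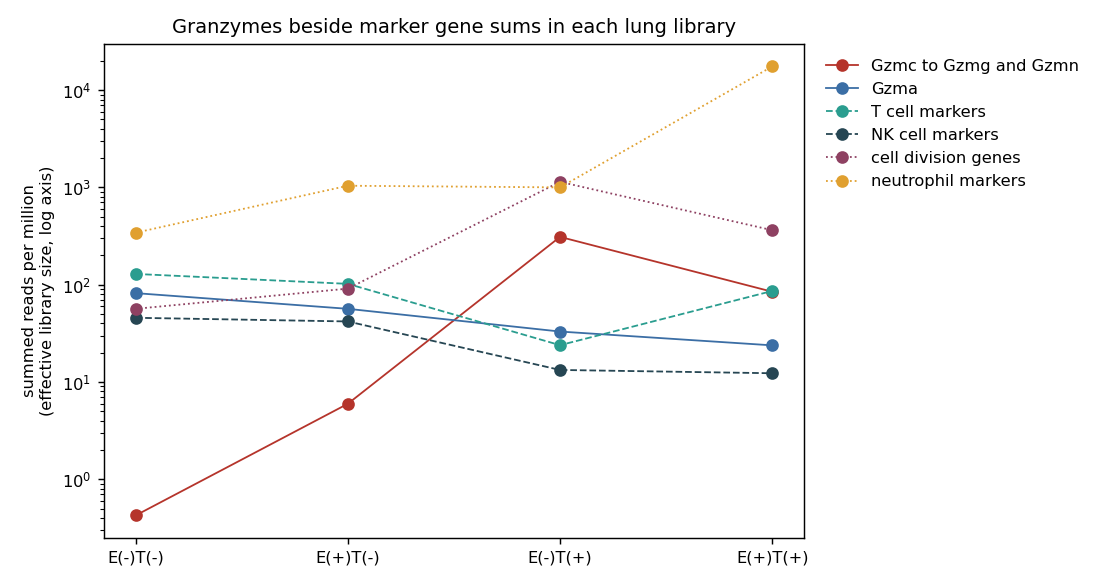
Summed RPM (log axis) in the 4 lung libraries for Gzmc to Gzmg with Gzmn, for Gzma, and for 4 marker lists. Lines only join points of one list. The cluster granzymes rank with the cell division genes, highest in E(-)T(+), where the T cell marker sum is lowest at 23.9.

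The other genes of the granule pathway were taken from lists of known roles. Beside each list below stand the shares already given, 20.6% of all rows higher and 25.7% lower with tumor without exercise. Of 15 packaging and release genes past the filter, 6 were lower and 0 higher in the cancer control than in the normal control, with a median log2 difference of -0.90, and 11 were higher in the cancer exercise library than in the cancer control (24.3% of all rows). Ctsc, the peptidase that activates granzymes by removing their leading dipeptide, had 1594, 1406, 401 and 884 reads. Srgn, the proteoglycan core that holds granzymes in the granule, had 2274, 3699, 2385 and 6007 reads and did not follow the same order. Unc13d, which primes granules for release, had 251, 231, 20 and 155, and Rab27a, which docks them, 442, 266, 80 and 293. Nkg7, a granule membrane protein of killer cells, had 229, 169, 29 and 68. These genes were named for their tumor difference, save Ctsc and Srgn, and do not stand for the list.

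Of 6 granzyme inhibitors, 1 was higher and 2 were lower in the cancer control than in the normal control, near the shares of all rows. Serpinb9, an intracellular inhibitor of granzyme B, had 1190, 1168, 163 and 425 reads. Serpinb6b had 2122, 1862, 311 and 597. Serpina3n, a secreted serpin able to inhibit granzyme B and an acute phase protein, was the higher one with 204, 216, 1803 and 4274. Serpina3g had 222, 118, 92 and 322. With tumor, 4 of the 6 were higher with exercise and 0 lower (24.3% and 17.7% of all rows).

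Of 13 substrates, 7 were higher and 1 lower in the cancer control than in the normal control, with a median of 1.5. Hmgb2, a chromatin protein cut by granzyme A, had 282, 353, 1638 and 944 reads, and Apex1, a repair endonuclease of the same complex, 132, 171, 642 and 180. Bid, a BH3-only protein cut by granzyme B, had 110, 97, 291 and 109.

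Of 7 other killing molecules, 4 were lower and 0 higher in the cancer control than in the normal control, with a median of -2.42. Fasl and Ifng, both called lower, would not have passed the filter without the normal control, where both were highest. The median is the value of Fasl, with 19 reads in the normal control and 2 in the cancer control. The count and the median therefore support nothing by themselves. Tnfsf10, the death ligand TRAIL, had 677, 382, 16 and 72 reads. Tnfrsf10b, its receptor, had 70, 114, 106 and 241. With tumor, 6 of the 7 were higher with exercise and 1 lower (24.3% and 17.7% of all rows). Fas was among the former with 104 reads in the cancer control and 646 in the cancer exercise library. The intervals of Fasl, the lower one, and of Ifng, called higher, included 0.

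Of 10 transcription factors of cytotoxic cells, 3 were higher and 4 lower in the cancer control than in the normal control, not far from the shares of all rows. Tbx21 (T-bet), a regulator of Gzmb and Prf1 in T and NK cells, had 63, 70, 3 and 5 reads, and Stat4 43, 40, 5 and 24. Runx3, also a regulator of cytotoxic genes, was higher with 189, 268, 569 and 609, and Nfil3 with 112, 196, 358 and 1336. Tbx21 was low and Runx3 high in both tumor libraries.

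Of 11 cytokine and receptor genes past the filter, 4 were higher and 4 lower in the cancer control than in the normal control, against 20.6% and 25.7% of all rows. Among those called higher, Il12a rests on 1 read against 0 and Il12rb1 on 6 against 3. The counting intervals of their levels overlap, and Il12a passed the filter only through the exercise libraries. Il18r1 had 809, 1048, 36 and 203 reads, whereas Il18rap, its partner chain, had 77, 106, 493 and 212. Il18 itself had 604, 599, 106 and 228. Il2rb, the chain that binds interleukin 2 and 15 on killer cells, had 324, 231, 72 and 124.

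Neighbours in the genome were mixed. Gzmn, inside the cluster, had 0, 1, 85 and 27 reads and was at least 36.5-fold higher in the cancer control than in the normal control against the floor. Of 6 granule protease neighbours on the same chromosome past the filter, Gzmn among them, 3 were higher and 2 lower in the cancer control than in the normal control. Ctsg, the neutrophil cathepsin G gene, had 0, 0, 24 and 45 reads and Mcpt2, a mast cell protease, 2, 18, 8 and 24. Cma1 had 39, 30, 6 and 17 reads, and Mcpt4 9, 7, 0 and 24. Cma2, Mcpt8 and Mcpt9 were at 0 in both control libraries. On chromosome 10, Prtn3, a neutrophil protease of the family of Gzmm, had 9, 3, 47 and 243 reads, and Cfd 951, 570, 398 and 335.

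The genes most like 3 of the members were found among 11209 genes whose normalized count averaged 50 or more, the members themselves left out, by the distance between the 4 log2 values after each gene's mean was taken out. Nearest to Gzma were Antxr1 (distance 0.03), Tmem229b (0.08), Plscr2 (0.10), Pla2g15 (0.12) and Zfp697 (0.16). Nearest to Gzmb were Cryz (0.32), Nrm (0.36), Scamp5 (0.45), Tnfaip8l1 (0.48) and Tmem138 (0.49). Nearest to Gzmd were Etv4 (0.68), Rpl39l (0.77), Fosl1 (0.79), AA467197 (0.90) and Cenph (1.04). With 4 libraries of one sample each, such likeness is a description only.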

How the data were processed

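Lung RNA of 4 groups was measured with 1 library each. The authors made QuantSeq 3' libraries, read single ends of 75 bases, aligned them with Bowtie2 and counted them with bedtools (versions not given in the sources used here; build mm10 per the submitters' processing notes), then normalized the counts by the quantile method of edgeR. The deposited values are log2(normalized count + 1), of which 100.00% were matched within 0.001 by whole reads carried through a negative binomial quantile adjustment, and these reads were used for intervals. A single read moved the value by over 0.002 in 88.5% of values, and above that level read numbers are approximate. The recovery and the calls were tested on simulated data. In a simulated tumor effect without exercise, 200 of 200 genes made 4-fold higher were called, and 96% of intervals over 15164 genes held the true ratio. A 4-fold change lies well past the 2-fold limit, and this count gives no rate of calls among unchanged genes. Differences are of the deposited log2 values, called at 2-fold, as in the study, with its count limit of 4 applied here to the mean over the libraries. No test was run, since each group is 1 library and a model over all 4 would have to leave out the interaction. Shares, reads and ratios carry exact 95% intervals, which cover counting error only, since reads without molecular identifiers are not independent molecules. Filters, pseudocount, scaling and the summing of Gzmd to Gzmg were varied. The members and lists were chosen with earlier results of these data known. All members are named, with, from each list, up to 4 genes of mean normalized count of at least 20 and the largest tumor difference, plus Ctsc, Srgn, Ncr1, Cd8a, Cd3e and Serpinb9. Granzyme N is named as a cluster neighbour. Cma2, Ctsg, Fasl, Fcer1a, Ifng, Il12a, Il12rb1, Mcpt2, Mcpt4, Mcpt8, Mcpt9, Mki67, Prss34 and Vamp7 fall outside this rule and were named after their values were seen. Values of some genes this rule names are not reported here. Python 3.11.15, NumPy 2.4.6, SciPy 1.17.1, pandas 2.3.3, Biopython 1.88 and matplotlib 3.10.9 were used.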

Additional observations from a re-analysis of the deposited data

Results flagged for a closer look

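The exercise difference pointed one way without tumor and the other way with tumor for 5 members, with values past 2-fold on both sides. With log2(normalized count + 1), the value with tumor minus that without was -7.09 for Gzmf, -5.84 for Gzmd, -5.68 for Gzme, -5.27 for Gzmg and -4.41 for Prf1. The first 4 have 0 reads in E(-)T(-), so these values depend on the pseudocount. With that library at the floor of 3 reads they were -5.70, -4.39, -4.17 and -3.79. For Prf1 the difference without tumor did not exceed counting error (log2 interval -0.04 to 8.41). The difference between the settings was not tested, since each group is 1 library. Without tumor it rests on 37, 15, 9, 11 and 7 reads in E(+)T(-), beside the reads of Crabp1, Krt20, Etv4 and Osr2 in the same library.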

How the results depend on the processing

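No paired analysis was possible because each group is 1 library. Of 162 values of single members under other settings, the sum of Gzmd to Gzmg left out, 146 stayed within the counting interval, which has no upper end against 0 reads, and 16 moved outside it, and no difference past the limit turned sign. Gzmm, with 3 reads on each side for exercise with tumor, went from 0.08 to -0.39 with library totals alone. Summing Gzmd, Gzme, Gzmf and Gzmg to 1 gene gave 2 members higher for exercise without tumor, 4 for tumor without exercise, and 3 for tumor with exercise, and 3 lower for exercise with tumor, by construction. A mean count of at least 50 left 1 member lower in both tumor comparisons, as did a pseudocount of 4 for tumor with exercise, where Gzmm (-0.90) and Prf1 (-0.70) came inside the limit. Scaling by library totals alone put the median of all rows at -0.59 for exercise with tumor and at -0.41 for tumor with exercise. Gzma (-1.07) and Gzmc (-1.49) then passed the limit in the former and Gzmb (0.93) missed it in the latter. Relative to the median of all rows each kept its call. An alternative chosen after seeing the data took 1.44% of the E(-)T(+) level, the median over Crabp1, Krt20, Etv4 and Osr2, out of E(+)T(-). Gzmc then also counted as lower, giving 2 lower for exercise without tumor. Gzmf fell from 5.13 to 2.75, and Gzmd (2.49), Gzme (2.27) and Gzmg (1.82) also came down. Against 0 reads any remainder counts as higher. Depth limits Prf1 and Gzmm, with at most 15 reads in any library.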
